A study of Homo sapiens with 11 samples.

Results

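The genes of the proteasome were followed after introduction of miR-365a-3p into cancer cells. The members are all genes of the array table whose symbol is PSM, a letter from A to G and a number, which picks 48 of 31325 genes, and the rule reads the symbol only. All 48 match a current human gene symbol. mRNA levels were measured in MDA-MB-231 cells, a triple-negative breast cancer line, and in SKOV3 cells, an ovarian cancer line, on 11 Illumina BeadChip arrays. Each line received miR-365a-3p or a control miRNA, with 3 arrays in each group except for the SKOV3 controls, which had 2. The labels place all groups at 48 h, whereas the design text of the series gives 24 h. The ovarian line is SKOV3 in the labels but its derivative SKOV3.ip1 in the study's methods, and no label says whether the arrays of a group came from separate cultures, so that p-values measure the spread between these arrays only. Since each line is a single cell line, the comparisons hold for these lines and not for breast or ovarian cancer in general.

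The proteasome is the protease that destroys proteins marked with ubiquitin. Its 20S core is a barrel of stacked rings, in which the outer rings of alpha subunits (PSMA genes) gate the entry and the inner rings of beta subunits (PSMB genes) hold the cutting sites. The 19S cap sits on the barrel ends, where ATPases of the AAA type (PSMC genes) unfold the substrate and non-ATPase subunits (PSMD genes) bind and remove the ubiquitin. Other activators (PSME genes) open the barrel without ATP, PSMF1 inhibits it, and dedicated chaperones (PSMG genes and several PSMD genes) assist assembly. Interferon-inducible beta subunits can replace the constitutive cutting subunits, which forms the immunoproteasome that shapes peptides for antigen presentation. Cells that lose proteasome function raise the transcription of subunit genes through the factor NFE2L1, which binds antioxidant response elements in their promoters.

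The introduced miRNA and the upstream sequences of 5 members are shown because the miRNA defines the treatment, because PSMC2, PSMD14 and PSME1 carry the calls that were most stable, and because PSME2 and PSMD12 are the partner of PSME1 and a lid subunit of opposite response to PSMD14. In the mature miRNA, the seed (bases 2 to 8), through which a miRNA pairs with its targets, is in capitals. RefSeq lists the same mature sequence for the genes MIR365A and MIR365B. In the upstream sequences, which run 5′ to 3′ on the strand of the gene over the 250 bases before its start (RefSeq, GRCh38.p14), capitals mark TGACNNNGC (the core of the element bound by NFE2L1 or NFE2L2 with a small MAF protein), CCAAT (NF-Y) and CCGGAAGT (ETS factors), read on both strands.
hsa-miR-365a-3p: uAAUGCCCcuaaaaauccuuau
PSMC2, chr7:103347393-103347642, plus strand: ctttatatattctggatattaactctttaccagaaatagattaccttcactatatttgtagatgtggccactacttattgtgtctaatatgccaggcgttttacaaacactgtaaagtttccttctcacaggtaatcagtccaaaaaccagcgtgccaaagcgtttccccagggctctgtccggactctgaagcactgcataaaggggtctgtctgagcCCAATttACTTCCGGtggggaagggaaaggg
PSMD14, chr2:161308175-161308424, plus strand: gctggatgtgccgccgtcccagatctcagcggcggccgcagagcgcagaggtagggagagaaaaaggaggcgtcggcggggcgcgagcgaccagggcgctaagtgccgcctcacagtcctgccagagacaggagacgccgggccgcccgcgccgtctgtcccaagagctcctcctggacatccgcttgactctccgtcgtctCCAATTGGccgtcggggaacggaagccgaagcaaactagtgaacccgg
PSMD12, chr17:67366578-67366827, minus strand: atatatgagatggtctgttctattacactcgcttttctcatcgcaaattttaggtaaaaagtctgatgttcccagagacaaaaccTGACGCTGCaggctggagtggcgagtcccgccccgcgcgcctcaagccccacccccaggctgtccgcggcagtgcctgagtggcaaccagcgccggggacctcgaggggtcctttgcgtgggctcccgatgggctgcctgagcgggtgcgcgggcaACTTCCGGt
PSME1, chr14:24135944-24136193, plus strand: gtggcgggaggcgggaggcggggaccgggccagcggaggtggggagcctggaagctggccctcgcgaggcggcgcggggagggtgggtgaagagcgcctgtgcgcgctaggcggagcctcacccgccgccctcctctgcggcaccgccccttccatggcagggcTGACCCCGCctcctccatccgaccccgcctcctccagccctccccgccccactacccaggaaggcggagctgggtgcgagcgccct
PSME2, chr14:24146611-24146860, minus strand: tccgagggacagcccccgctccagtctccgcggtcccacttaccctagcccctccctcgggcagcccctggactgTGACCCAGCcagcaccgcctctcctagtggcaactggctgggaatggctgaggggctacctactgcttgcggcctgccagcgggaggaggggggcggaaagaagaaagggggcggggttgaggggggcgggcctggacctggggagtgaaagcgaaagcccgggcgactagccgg
PSME1 and PSME2 lie in the same stretch of chromosome 14 with EMC9 between them, and both windows hold 1 match to TGACNNNGC and none to the other motifs. In the PSMD14 window, the 2 matches to CCAAT are a single stretch read on either strand and overlap. PSMD12 holds 1 match to TGACNNNGC and 1 to CCGGAAGT, and PSMC2 holds 1 match each to CCAAT and CCGGAAGT.

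Arrays of one group correlated with r between 0.942 and 0.994 over the 6853 genes with a mean signal above 8. The deposited values of the miR-365a-3p arrays were spread differently from those of the controls. Their 75th percentile was lower, at 7.62 ± 0.05 (SD, n = 3) against 7.91 ± 0.04 (n = 3) in the MDA-MB-231 controls. In SKOV3 it was 7.74 ± 0.06 (n = 3) against 8.01 ± 0.04 (n = 2) in the controls. At the upper end they were higher. The level that 1% of genes exceeded was 12.64, 12.51 and 12.53 against 12.29, 12.32 and 12.28 in the MDA-MB-231 controls. In SKOV3 it was 12.49, 12.41 and 12.42 against 12.21 and 12.31 in the controls. All values below were therefore quantile normalized across the arrays and are log2 signals. A gene's signal depends on its probe, so levels are compared between groups and never between genes. Of the markers fixed for the lines, some told them apart, with ERBB2 at 10.86 ± 0.065 in SKOV3 control cells and 7.61 ± 0.073 in MDA-MB-231 control cells, and EPCAM higher in SKOV3 by 2.73. VIM, a mesenchymal marker, did not, at 13.79 ± 0.076 in MDA-MB-231 controls and 13.70 ± 0.0072 in SKOV3 controls, nor did KRT18 (-0.11, adjusted p = 0.729, limma), and PGR and CDH1 lay under the 60th percentile of all values on every array. The markers of blood (PTPRC), endothelium (PECAM1) and fibroblasts (COL3A1) stayed below 8 on every array, whereas COL1A1 stood at 8.51 ± 0.015 in the SKOV3 controls. Of the members, 44 had a mean signal above 8, a level that 6853 of all genes exceeded. The other 4 were PSMA7, PSMD9 and the tissue-restricted PSMA8 (testis) and PSMB11 (thymus), and the last 2 lay under the 60th percentile of all values (7.45) on every array.

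Proteasome mRNAs moved in both directions after miR-365a-3p, and mostly upwards. Alpha subunits of the core, 2 ATPases of the cap, the lid subunits PSMD6 and PSMD14 and several assembly chaperones rose in both lines, while PSMD12, PSME1 and PSME3 fell in both. In MDA-MB-231 cells, 20 of the 48 members rose and 7 fell at an adjusted p under 0.05 (limma, Benjamini-Hochberg over all genes), where 14.4% of all genes rose and 11.7% fell. The members are read also against the genes with a mean above 8, of which 39.0% rose and 26.2% fell. The shares of the 44 members with such a mean were 45.5% and 15.9%. The median log2 fold change was 0.30 over the 48 members and 0.36 over the 44 with a mean above 8. It was 0.17 over all genes with such a mean and 0.0064 over all genes. In SKOV3 cells, 14 members rose and 3 fell, against 7.25% and 7.11% of all genes and 23.4% and 15.3% of the genes with a mean above 8. The corresponding shares of the 44 members were 31.8% and 6.82%. The median was 0.20 over all 48 members and 0.28 over the 44, against 0.15 for genes with a mean above 8. After quantile normalization the share of members that rose thus lay near that of other well expressed genes in MDA-MB-231. On deposited values 39.6% of the 48 members rose in MDA-MB-231 against 26.1% of the genes with a mean above 8, and 29.2% against 15.1% in SKOV3. The shares were not tested against each other. In bulk RNA a change in every cell and a change in the share of cells cannot be told apart.

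**Figure D1:**
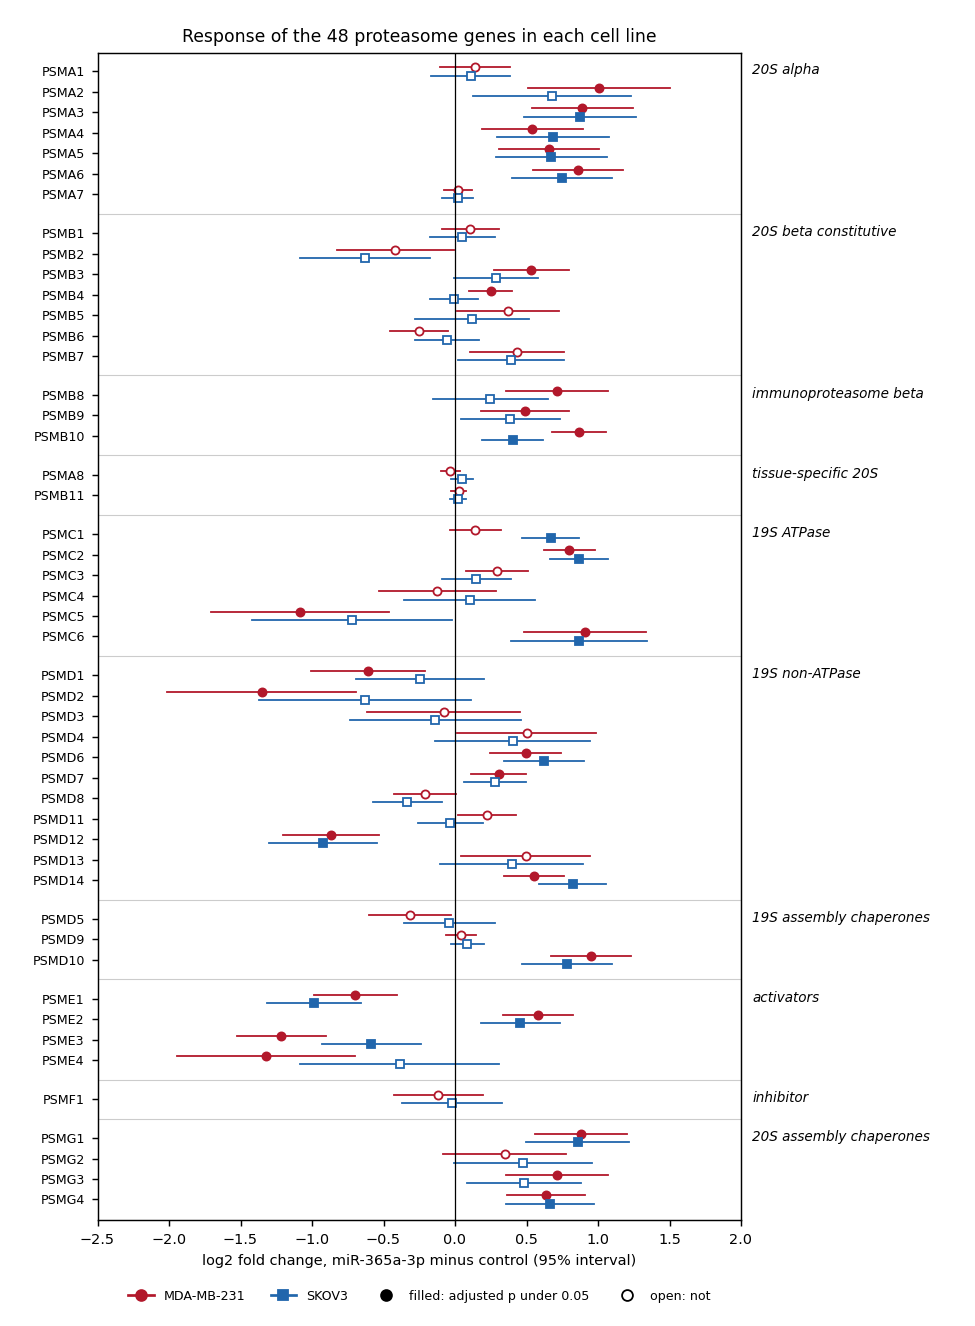
Log2 fold change (miR-365a-3p minus control, horizontal axis) of each of the 48 proteasome genes, grouped by role. Circles are MDA-MB-231 and squares SKOV3, lines are 95% intervals of the fit, and filled symbols passed an adjusted p of 0.05. Filled symbols lie on the right for the alpha subunits and the 20S chaperones and on the left for 3 of the 4 activators.

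Without normalization of the deposited values the median of the genes with a mean above 8 changed sign, but that of the members did not. Those genes then had a median of -0.052 in MDA-MB-231 and -0.0041 in SKOV3, a shift of over 0.1 from the normalized values, while the members kept medians of 0.29 and 0.16. Relative to those genes, the median of all 48 members was thus 0.34 higher in MDA-MB-231 and 0.16 higher in SKOV3 on deposited values, against 0.13 and 0.045 after quantile normalization. The 48 include members with a lower mean signal, so the sets are not alike. After quantile normalization the 44 members with a mean above 8 had medians of 0.36 and 0.28. Their medians on deposited values are not given. Among all called genes, the share that fell was 71.2% in MDA-MB-231 and 78.6% in SKOV3 on deposited values, compared with 44.8% and 49.5% after quantile normalization. Median centring of the arrays gave 59.1% and 67.7%. Among called members that share was 25.9% and 17.6% after quantile normalization and 34.5% and 22.2% on deposited values, and cyclic loess within each line gave 32.0% and 33.3%.

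Both lines gave the same call for 16 members. The 13 that rose in both were PSMA3, PSMA4, PSMA5, PSMA6, PSMB10, PSMC2, PSMC6, PSMD6, PSMD10, PSMD14, PSME2, PSMG1 and PSMG4, and the 3 that fell were PSMD12, PSME1 and PSME3. Of all genes, 5.76% rose and 5.39% fell in both lines, and of those with a mean above 8, 21.0% and 13.4%. No member was called in opposite directions, 11 were called in MDA-MB-231 alone, 1 in SKOV3 alone (PSMC1), and 20 in neither. The sign of the change was shared by 44 of the 48. Across the 48 members, Pearson's r between the changes in the 2 lines was 0.897 and Spearman's rho 0.922, compared with 0.855 and 0.877 across the genes with a mean above 8. These coefficients run across genes of the same arrays, and genes are not independent replicates. Treated arrays of the same number in the 2 lines deviated together from their group means over the 6853 genes. Their correlations were 0.70, 0.31 and 0.34 for replicates 1, 2 and 3, while those of the controls were 0.12 and -0.13. Deviations of the 2 SKOV3 control arrays from their mean mirror each other, so the control correlations are not separate readings. The fits treat the arrays of the lines as independent. Replicate 1 was the treated array farthest from the control mean for 29 members in MDA-MB-231 and 27 in SKOV3. Arrays of the treated and control groups did not overlap for 25 members that were higher and 10 that were lower in MDA-MB-231, where 21.0% and 17.0% of all genes were so separated, and for 23 and 7 members in SKOV3, where 23.7% and 18.2% were. Among genes with a mean above 8 the separated shares were 44.9% and 30.8% in MDA-MB-231 and 44.6% and 26.4% in SKOV3.

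The SKOV3 counts rested on the 2 control arrays. Without SKOV3 control replicate 1, 5 members rose and 2 fell in SKOV3, and 4 rose and 2 fell in both lines. Leaving out SKOV3 control replicate 2 left 3 and 1 in SKOV3, and in both lines 2 that rose (PSMC2 and PSMD14) and 1 that fell (PSME1). In these fits the lone control array is assumed to vary like the other groups. PSMC2, PSMD14 and PSME1 were called in both lines in all 22 alternative analyses, PSMG1 and PSMD12 in 21, PSMA6, PSMD6 and PSMG4 in 19, PSMA3 and PSMD10 in 18, PSMC6 in 16, PSMB10 and PSME3 in 14, PSMA4 and PSMA5 in 12, and PSME2 in 7. With cyclic loess within each line 7 rose in both, without PSMA3, PSMA4, PSMA5, PSMB10, PSMC6 and PSME2, and with each line fitted alone 7 did, without PSMA3, PSMA4, PSMA5, PSMC6, PSMD10 and PSME2. The PSMA4 call was further lost when any of 4 arrays of MDA-MB-231 or SKOV3 miR-365a-3p replicate 1 was left out.

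**Figure D2:**
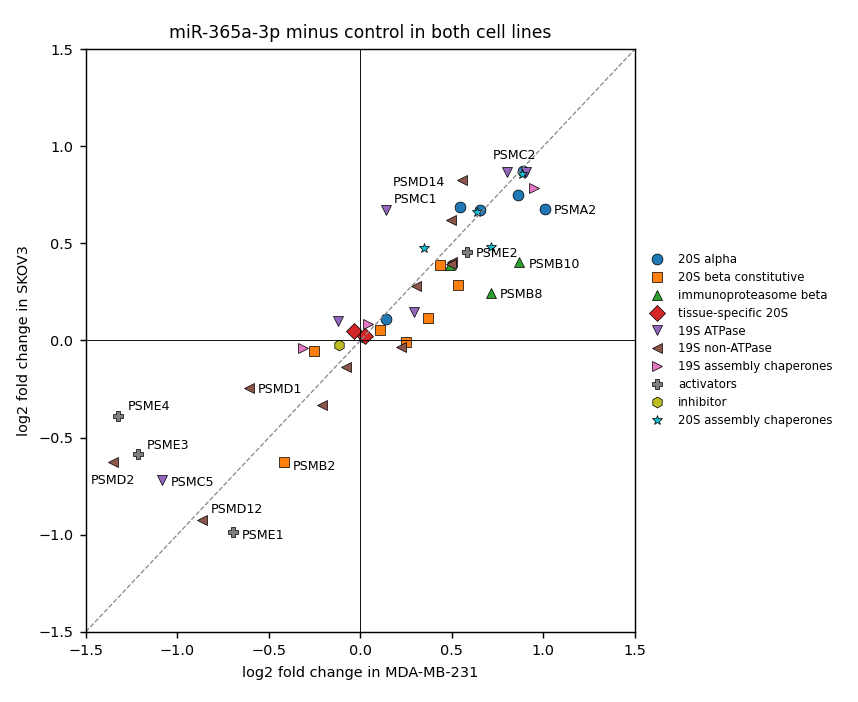
Log2 fold change of each member in MDA-MB-231 (horizontal) against that in SKOV3 (vertical), with symbols for the roles and a dashed line of equal change. Most points lie close to the dashed line, and PSME4, PSME3 and PSMD2 lie farthest above it at the lower left, at -1.32, -1.21 and -1.35 in MDA-MB-231 against -0.39, -0.58 and -0.63 in SKOV3.

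Most alpha subunits of the core rose, 71.4% of the 7 in MDA-MB-231 and 57.1% in SKOV3, against 39.0% and 23.4% of genes with a mean above 8. PSMA2 to PSMA6 rose in MDA-MB-231 cells by 0.54 to 1.01 on the log2 scale, and PSMA3 to PSMA6 in SKOV3 cells by 0.67 to 0.88, while PSMA2 did not pass there (0.68, adjusted p = 0.109 from limma). The median over the 7 alpha genes was 0.66 in MDA-MB-231 and 0.68 in SKOV3. PSMA1 did not pass in either line (0.14 and 0.11), and PSMA7 read between 7.36 and 7.53 over the 11 arrays, near the lower end of the table. PSMA3, one of the subunits of the ring that gates the barrel, read 10.67, 11.09 and 10.86 on the MDA-MB-231 control arrays and 11.92, 11.80 and 11.57 on the treated ones. In SKOV3 cells its values were 10.81 and 10.52 in the controls and 11.80, 11.48 and 11.34 after miR-365a-3p. Treated and control arrays did not overlap in either line. The rises were 0.89 ± 0.15 (SE), or 1.85-fold, in MDA-MB-231 and 0.88 ± 0.17 in SKOV3, with adjusted p = 0.0028 and 0.0103 from limma. PSMA6, another alpha subunit, rose by 0.86 ± 0.14 and 0.75 ± 0.15 (adjusted p = 0.00189 and 0.0124, limma), and PSMA5 by 0.66 ± 0.15 and 0.67 ± 0.17 (adjusted p = 0.0123 and 0.0311). Without SKOV3 control replicate 2, the SKOV3 adjusted p from limma was 0.115 for PSMA3, 0.114 for PSMA6 and 0.148 for PSMA5. Without replicate 1 it was 0.0333, 0.0583 and 0.177. The PSMA5 call was also lost without MDA-MB-231 control replicate 3 in MDA-MB-231 (0.0517), and in SKOV3 without MDA-MB-231 miR-365a-3p replicate 2, SKOV3 miR-365a-3p replicate 1 or SKOV3 miR-365a-3p replicate 2 (0.0525, 0.0793 and 0.061).

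Chaperones that build the alpha ring also rose. Of the 4 PSMG genes, 3 rose in MDA-MB-231 and 2 in SKOV3, with medians of 0.68 and 0.57. Of genes with a mean above 8, 39.0% and 23.4% rose. PSMG1, which works as a dimer with PSMG2, read 9.16, 9.67 and 9.38 in MDA-MB-231 controls and 10.33, 10.39 and 10.13 after miR-365a-3p. The SKOV3 arrays gave 10.18 and 10.07 in controls and 11.20, 10.81 and 10.93 in treated cells. No treated array overlapped a control array of its line. PSMG1 thus rose by 0.88 ± 0.14 and 0.86 ± 0.16 (adjusted p = 0.00193 and 0.00753, limma). Its dimer partner PSMG2 changed by 0.35 and 0.48 and did not pass (adjusted p = 0.253 and 0.21, limma). PSMG4 rose by 0.64 ± 0.12 and 0.66 ± 0.13 (adjusted p = 0.00439 and 0.0118), and by 0.29 and 0.41 on deposited values, whereas its partner PSMG3 rose in MDA-MB-231 (0.71, but with adjusted p = 0.121 on deposited values and 0.0846 after median centring) and missed the threshold in SKOV3 (0.48, adjusted p = 0.115, limma). POMP, a chaperone outside the symbol rule that joins the beta subunits to the alpha ring, rose by 0.61 ± 0.14 and 0.70 ± 0.16 (adjusted p = 0.0122 and 0.0191, limma). In SKOV3, without control replicate 1 or 2, the adjusted p from limma was 0.0439 or 0.0774 for PSMG1, 0.0667 or 0.104 for PSMG4 and 0.0603 or 0.176 for POMP, and for POMP 0.0528 without SKOV3 miR-365a-3p replicate 1.

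**Figure D3:**
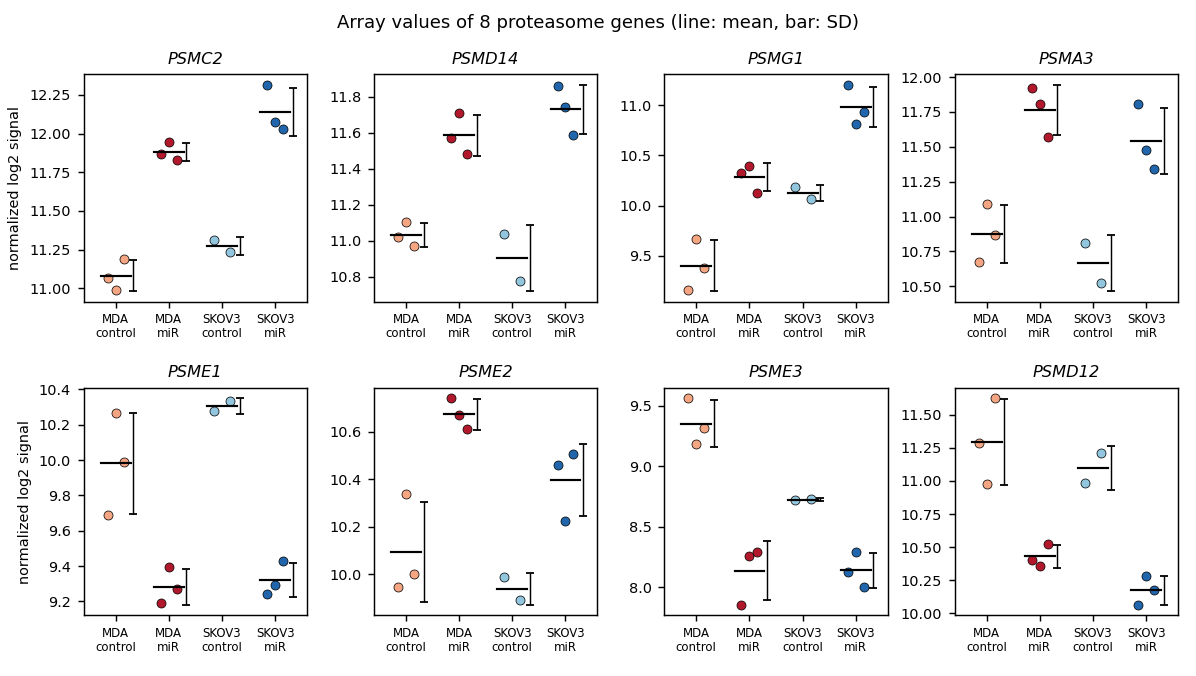
Normalized log2 signal (vertical axes, one scale per gene) of 8 members on each of the 11 arrays, by group; the horizontal line is the group mean and the bar its SD. Treated and control arrays do not overlap in either line for any of the 8 genes, with PSME1, PSME3 and PSMD12 lower and the other 5 higher after miR-365a-3p.

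Few of the constitutive beta subunits passed, where 39.0% of genes with a mean above 8 rose in MDA-MB-231 and 23.4% in SKOV3. Of PSMB1 to PSMB7, 2 rose in MDA-MB-231 (PSMB3 by 0.53 and PSMB4 by 0.25), none passed in SKOV3, where 2 had an unadjusted p under 0.05 against 6 in MDA-MB-231, and the medians were 0.25 and 0.052. The PSMB4 call was lost in 8 alternative fits, among them the deposited values (adjusted p = 0.0533, limma) and without MDA-MB-231 miR-365a-3p replicate 1 (0.0778) or MDA-MB-231 control replicate 1 or 3 (0.0696 and 0.0831). PSMB3 passed in SKOV3 on deposited values (adjusted p = 0.0438, limma), with median centring (0.0348) and with array weights (0.0454). The 3 genes with catalytic products did not pass in either line: PSMB5 (chymotrypsin-like site) changed by 0.37 and 0.12, PSMB6 (caspase-like site) by -0.25 and -0.056, and PSMB7 (trypsin-like site) by 0.43 and 0.39. The intervals of the MDA-MB-231 changes were 0.014 to 0.73, -0.45 to -0.051 and 0.10 to 0.77. Without MDA-MB-231 control replicate 2, PSMB5 and PSMB7 passed in MDA-MB-231 (adjusted p = 0.00454 and 0.018, limma). PSMB7 also passed there without SKOV3 miR-365a-3p replicate 2 or replicate 3 (0.0294 and 0.0394), and in 8 of the 22 alternatives in all, among them deposited values (0.67, adjusted p = 0.00899). In SKOV3 it passed with median centring (0.0479), with array weights (0.0201) and without SKOV3 miR-365a-3p replicate 2 (0.0489). PSMB2 had values of -0.42 and -0.63 (adjusted p = 0.138 and 0.0739), and passed in both lines without MDA-MB-231 control replicate 1 (0.0324 and 0.0382).

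The 3 inducible beta subunits rose in MDA-MB-231 cells after quantile normalization, and of these only PSMB10 kept its call on deposited values. PSMB8, which replaces PSMB5, rose by 0.71 ± 0.16 (1.64-fold, adjusted p = 0.0094 from limma), PSMB9, which replaces PSMB6, by 0.49 ± 0.14 (1.4-fold, adjusted p = 0.0274) and PSMB10, which replaces PSMB7, by 0.87 ± 0.083 (1.83-fold, adjusted p = 0.000143). On the arrays, PSMB10 read 9.70, 9.84 and 9.87 in MDA-MB-231 controls against 10.84, 10.50 and 10.68 after miR-365a-3p. The SKOV3 values were 10.87 and 10.79 in controls and 11.19, 11.21 and 11.31 in treated cells. The groups did not overlap in either line, and PSMB10 rose by 0.40 ± 0.093 in SKOV3 (adjusted p = 0.0211, limma). For PSMB8 and PSMB9 the SKOV3 values were 0.25 (95% interval -0.16 to 0.65) and 0.39 (0.041 to 0.73), which did not pass, with adjusted p = 0.507 and 0.147 (limma). On deposited values the MDA-MB-231 change was 0.36 for PSMB8 and 0.21 for PSMB9 (adjusted p = 0.16 and 0.371, limma), and with median centring it was 0.39 and 0.25 (0.109 and 0.244). Cyclic loess gave an adjusted p of 0.0506 for PSMB9. The PSMB9 call in MDA-MB-231 was also lost when any of 6 single arrays was left out, with an adjusted p of up to 0.0878 (limma, without MDA-MB-231 control replicate 3), and both PSMB8 and PSMB9 passed in SKOV3 without SKOV3 miR-365a-3p replicate 2 (0.0408 and 0.0022). PSMB10 lost its SKOV3 call without SKOV3 miR-365a-3p replicate 3 (0.0621) or either control (0.083 and 0.171), with cyclic loess (0.161), the replicate block (0.168) and the intensity trend (0.104).

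PSMB8 and PSMB9 lie in the class II region of the major histocompatibility complex in the order TAP2, PSMB8, TAP1, PSMB9, and the TAP genes encode the pump that carries the cut peptides into the endoplasmic reticulum. TAP1 read 8.57, 8.32 and 8.36 in MDA-MB-231 controls and 9.41, 9.58 and 9.63 after miR-365a-3p, which is a rise of 1.12 ± 0.082 (adjusted p = 3.77e-05, limma). In SKOV3 it read 10.08 and 9.93 in controls against 10.27, 10.41 and 10.37 in treated cells and rose by 0.34 ± 0.092 (adjusted p = 0.039), a call lost without SKOV3 control replicate 1 or 2 (0.0826 and 0.293) and without any of 4 other arrays (up to 0.0905), on deposited values (0.142), with cyclic loess (0.111) and with the replicate block (0.257). Treated and control arrays were apart in both lines, and the rise was smaller in SKOV3 by 0.78 on the log2 scale (difference of responses -0.78 ± 0.12, adjusted p = 0.0138, limma). TAP2 fell by 0.36 ± 0.067 in MDA-MB-231 (adjusted p = 0.00371, limma) and gave -0.035 in SKOV3 (adjusted p = 0.895). Its signal was low, with a mean of 7.61 over the arrays. TAP2 and NLRC5 are named after their values were seen. IRF1 and NLRC5 encode inducers of these genes. IRF1 fell by 0.50 ± 0.078 and 0.48 ± 0.087 (adjusted p = 0.00174 and 0.00728, limma, and 0.0729 in SKOV3 without SKOV3 control replicate 2), and on deposited values by 0.84 and 0.76. The NLRC5 signal lay near the lower end of the table, with a mean of 7.41 over the arrays, so a change could hardly show.

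The ATPase ring of the cap was split. PSMC2 read 11.07, 10.99 and 11.19 on MDA-MB-231 control arrays and 11.87, 11.94 and 11.83 on treated ones. In SKOV3 the arrays gave 11.31 and 11.23 in controls and 12.32, 12.07 and 12.03 in treated cells, so that all treated arrays lay above all control arrays. The rises were 0.80 ± 0.079 (1.74-fold) and 0.87 ± 0.088 (1.82-fold), with adjusted p = 0.000162 and 0.00041 (limma). PSMC6 rose by 0.91 ± 0.19 and 0.87 ± 0.21 (adjusted p = 0.00677 and 0.0252, and in SKOV3 0.148 or 0.133 without SKOV3 control replicate 1 or 2). The next 2 ATPase genes are named after their values were seen. PSMC5 fell by 1.08 ± 0.27 in MDA-MB-231 (adjusted p = 0.0177, limma), where its arrays read 11.76, 12.14 and 11.98 in controls and 10.50, 10.94 and 11.20 in treated cells, and it gave -0.72 in SKOV3 (adjusted p = 0.186). All treated arrays lay below all control arrays in both lines. The call was lost without MDA-MB-231 miR-365a-3p replicate 1 (0.0652), control replicate 2 (0.0612) or control replicate 3 (0.0551) of that line, and with the replicate block (0.0637). PSMC1 passed in SKOV3 and not in MDA-MB-231, with a rise of 0.67 ± 0.087 (adjusted p = 0.0014) against 0.14 ± 0.078 in MDA-MB-231. It passed in MDA-MB-231 as well on deposited values (adjusted p = 0.000876, limma), with median centring (0.000566) and without MDA-MB-231 miR-365a-3p replicate 1 (0.0383). PSMC3 and PSMC4 did not pass in either line, with values of 0.29 and -0.12 in MDA-MB-231 and 0.15 and 0.10 in SKOV3. The 6 products form a single ring, and the changes of their mRNAs in MDA-MB-231 ran from -1.08 to 0.91.

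Among the 11 non-ATPase subunits of the cap, 3 rose and 3 fell in MDA-MB-231, 2 rose and 1 fell in SKOV3, and the medians were 0.22 and -0.032. In MDA-MB-231, 27.3% thus rose and 27.3% fell, against 39.0% and 26.2% of genes with a mean above 8. In SKOV3 the shares were 18.2% and 9.09%, against 23.4% and 15.3%. PSMD14, the deubiquitinase that cuts ubiquitin from substrates, read 11.02, 11.11 and 10.97 in MDA-MB-231 controls and 11.57, 11.71 and 11.48 after miR-365a-3p. The SKOV3 arrays read 11.04 and 10.77 in controls against 11.86, 11.74 and 11.59 in treated cells. The groups were apart in both lines, and PSMD14 rose by 0.55 ± 0.092 and 0.82 ± 0.10 (adjusted p = 0.0023 and 0.00114, limma). PSMD6, another lid subunit, rose by 0.49 ± 0.11 and 0.62 ± 0.12 (adjusted p = 0.00932 and 0.00996, and in SKOV3 0.0673 or 0.08 without SKOV3 control replicate 1 or 2), and PSMD7 passed in MDA-MB-231 (0.31), a call lost in 8 alternative fits with an adjusted p of up to 0.131 (limma, intensity trend); of these, 4 left out single arrays, namely MDA-MB-231 miR-365a-3p replicates 2 and 3 and control replicates 1 and 2.

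PSMD12, a lid subunit, went the other way. It read 11.28, 10.97 and 11.63 in MDA-MB-231 controls and 10.41, 10.36 and 10.52 after miR-365a-3p. In SKOV3 it read 10.98 and 11.21 in controls against 10.06, 10.28 and 10.18 in treated cells. Every treated array lay below every control array of its line. PSMD12 fell by 0.87 ± 0.15 (1.82-fold lower) and 0.92 ± 0.16 (1.9-fold lower), with adjusted p = 0.00258 and 0.00645 (limma), and 0.0758 in SKOV3 without SKOV3 control replicate 2. The scaffold subunits of the base, PSMD1 and PSMD2, which serve as docking platforms, fell in MDA-MB-231. PSMD2 read 12.04, 11.58 and 11.88 in controls and 9.81, 10.78 and 10.85 in treated cells there, without overlap, and fell by 1.35 ± 0.29 (adjusted p = 0.00828, limma). In SKOV3 it gave -0.63 ± 0.33 and did not pass (adjusted p = 0.299). PSMD1, named after its values were seen, fell by 0.61 in MDA-MB-231 and gave -0.24 in SKOV3, and its call was lost without MDA-MB-231 miR-365a-3p replicate 1 or 2 (adjusted p = 0.11 and 0.0809, limma) or MDA-MB-231 control replicate 1 or 3 (0.108 and 0.0854), and with the replicate block (0.0689). The 5 others (PSMD3, PSMD4, PSMD8, PSMD11 and PSMD13) did not pass in either line and lay between -0.21 and 0.50 in MDA-MB-231.

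The chaperones of the cap base differed from one another. PSMD10, known as the oncoprotein gankyrin, read 10.07, 10.38 and 10.27 in MDA-MB-231 controls and 11.22, 11.20 and 11.15 after miR-365a-3p. Its SKOV3 arrays read 9.97 and 9.999 in controls and 11.04, 10.51 and 10.77 in treated cells. The groups did not overlap in either line, and it rose by 0.95 ± 0.12 and 0.78 ± 0.14 (adjusted p = 0.000641 and 0.00593, limma, and in SKOV3 0.0502 or 0.0519 without SKOV3 control replicate 1 or 2). PSMD5 gave -0.32 and -0.039 and PSMD9 0.041 and 0.085, and neither passed.

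Of the 4 activators that open the core without the cap, 3 fell and 1 rose in MDA-MB-231, and 2 fell and 1 rose in SKOV3. Among genes with a mean above 8, 26.2% fell and 39.0% rose in MDA-MB-231, and 15.3% and 23.4% in SKOV3. PSME1 and PSME2 encode the alpha and beta subunits of the interferon-inducible 11S ring (PA28), in which both chains alternate, and their mRNAs moved apart. PSME1 read 9.69, 10.27 and 9.99 in MDA-MB-231 controls and 9.19, 9.39 and 9.27 after miR-365a-3p. The SKOV3 values were 10.28 and 10.34 in controls and 9.24, 9.29 and 9.43 in treated cells. Each treated array lay below each control array, and the falls were by 0.70 ± 0.13 (1.62-fold lower) and 0.99 ± 0.14 (1.98-fold lower), with adjusted p = 0.00374 and 0.00236 (limma). PSME2 read 9.95, 10.34 and 9.999 in MDA-MB-231 controls against 10.74, 10.67 and 10.61 in treated cells. In SKOV3 controls it read 9.99 and 9.89 against 10.46, 10.22 and 10.51 in treated cells. Treated arrays here all lay above the controls. The rises of PSME2 were 0.58 ± 0.11 (adjusted p = 0.0041, limma) and 0.46 ± 0.12 (adjusted p = 0.0367). The SKOV3 call of PSME2 was lost in 15 of the 22 alternatives, among them the deposited values and the fits without either SKOV3 control (0.126 without replicate 1 and 0.238 without replicate 2) or without any of 4 miR-365a-3p arrays (up to 0.1).

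PSME3, the nuclear activator PA28 gamma, read 9.56, 9.18 and 9.31 in MDA-MB-231 controls and 7.86, 8.26 and 8.30 after miR-365a-3p. In SKOV3 it read 8.72 and 8.73 in controls against 8.13, 8.29 and 8.0 in treated cells. The groups were apart in both lines. It fell by 1.21 ± 0.14 in MDA-MB-231 (2.32-fold lower, adjusted p = 0.000315, limma) and by 0.58 ± 0.15 in SKOV3 (1.5-fold lower, adjusted p = 0.0348). The SKOV3 call did not hold without either SKOV3 control (0.16 and 0.187), SKOV3 miR-365a-3p replicate 1 or 3 (0.0819 and 0.0961) or MDA-MB-231 control replicate 3 (0.0538), nor with the replicate block (0.247) or the block shared by both lines (0.0808). PSME4 (PA200), a large single-chain activator, read 10.18, 9.47 and 9.73 in MDA-MB-231 controls and 8.29, 8.42 and 8.71 after miR-365a-3p, without overlap, and fell by 1.32 ± 0.27 (adjusted p = 0.0067, limma). In SKOV3 it gave -0.39 ± 0.30 (adjusted p = 0.563), and -0.097 or -0.64 without SKOV3 miR-365a-3p replicate 1 or 2. The inhibitor PSMF1 did not pass in either line, with -0.12 (-0.43 to 0.20) and -0.022 (95% interval -0.37 to 0.33).

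Whether the responses of the lines differed was tested directly. At an adjusted p under 0.05 no member differed (limma), with or without the replicate number as a block shared by both lines. Without the block, 1.30% of all genes had a larger and 1.24% a smaller value in SKOV3. At an unadjusted p under 0.05 and without the block, 5 members differed: PSMC1, PSMB10, PSME3, PSMB4 and PSME4, named after their values were seen. PSMC1 had a difference of 0.53 ± 0.12 (SKOV3 response minus MDA-MB-231 response, adjusted p = 0.0592), which passed with dim genes left out (adjusted p = 0.0402, limma) and with array weights (0.0285). PSMB10 had -0.47 ± 0.13 (adjusted p = 0.117) and passed without MDA-MB-231 miR-365a-3p replicate 2 (-0.54 ± 0.097, adjusted p = 0.0448, limma). For the members called in MDA-MB-231 alone the intervals remained wide, as for PSME4 (0.0036 to 1.87), PSMD2 (-0.27 to 1.72) and PSMB8 (-1.01 to 0.072), so that these data do not show the responses to be alike. The size of the change was larger in MDA-MB-231 for 33 of the 48 members.

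Levels of some members, among them core subunits, differed between the lines under control miRNA, as did those of many other genes. In SKOV3 control cells 12 members were higher and 5 lower than in MDA-MB-231 control cells, where 8.34% of all genes were higher and 7.76% lower. Of the 6853 genes with a mean above 8, 1316 (19.20%) were higher and 1374 (20.05%) lower. The shares of the 44 members with such a mean were 27.27% and 11.36%. More members were thus higher, and fewer lower, than among those genes, and the shares were not tested against each other. The members higher in SKOV3 were PSMA1, PSMA6, PSMB1, PSMB2, PSMB3, PSMB4, PSMB8, PSMB9, PSMB10, PSMD6, PSMD11 and PSMG1, and those lower PSMB6, PSMC1, PSMC6, PSMD2 and PSME3. The cell line and the preparation or array batch of its samples cannot be told apart in this comparison. By non-overlapping control arrays alone, 20 members were higher and 11 lower, where 21.3% and 22.7% of all genes were. Among genes with a mean above 8 these shares were 33.6% and 37.1%. Beta subunits gave 7 of the 12 calls, and all 3 immunoproteasome genes were higher in SKOV3, PSMB8 by 1.14 ± 0.18, PSMB9 by 0.61 ± 0.15 and PSMB10 by 1.03 ± 0.093 (adjusted p = 0.00216, 0.0246 and 0.000104, limma). TAP2 was lower there (-0.37 ± 0.075, adjusted p = 0.00937, limma), whereas TAP1 was higher as well, by 1.59 ± 0.092. PSMB9 lost this call when any single control array was left out, with an adjusted p from 0.0504 to 0.146.

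PSMB1 read 13.24 and 13.06 in SKOV3 controls and 12.15, 12.21 and 11.95 in MDA-MB-231 controls. PSMB2 read 11.54 and 11.61 in SKOV3 controls against 9.84, 10.60 and 10.12 in MDA-MB-231 controls. Neither gene's groups overlapped, with differences of 1.05 ± 0.099 and 1.39 ± 0.20 (adjusted p = 0.000129 and 0.00146, limma). PSMD6 was higher in SKOV3 by 0.89 ± 0.12 (adjusted p = 0.00108), and PSMG1 by 0.72 ± 0.16 (adjusted p = 0.0136). PSMD2 was the member with the largest difference, lower in SKOV3 at 10.23 and 10.31 against 12.04, 11.58 and 11.88 (-1.56 ± 0.33, adjusted p = 0.0105, limma), but its adjusted p was 0.0813 and 0.0667 without SKOV3 control replicate 1 and 2. The catalytic PSMB6 was lower by 0.74 on the log2 scale (-0.74 ± 0.098, adjusted p = 0.000948), and PSME3 by 0.63 (-0.63 ± 0.15, adjusted p = 0.0224), a call lost on deposited values (0.0663), without either SKOV3 control (0.123 and 0.116) or MDA-MB-231 control replicate 1 or 3 (0.0613 and 0.0502). Without SKOV3 control replicate 1 the counts were 7 higher and 2 lower, without replicate 2 they were 8 and 2, and without MDA-MB-231 control replicate 3 the number of lower members was 3. The response to miR-365a-3p shares these control arrays, so no relation between the level and the response is given.

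**Figure D4:**
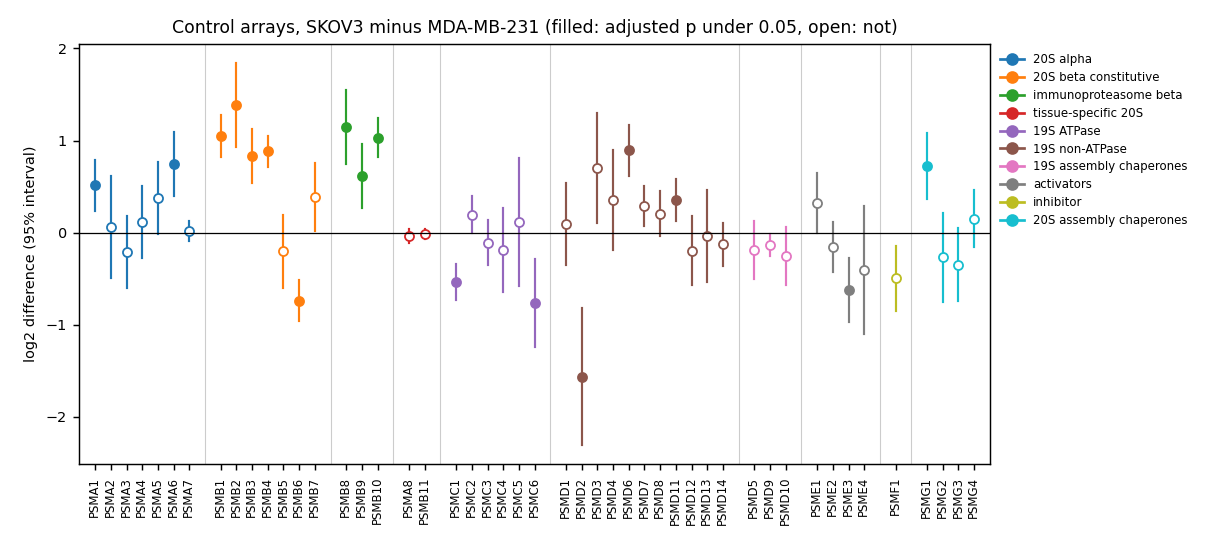
Difference in log2 signal between the control arrays of SKOV3 and of MDA-MB-231 (vertical axis) for each member, coloured by role, with the 95% interval of the fit; filled circles passed an adjusted p of 0.05. PSMB1 to PSMB4 and the 3 immunoproteasome genes lie between 0.61 and 1.39, and PSMD2 lies lowest at -1.56.

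Genes that bring substrates to the proteasome fell or did not pass. Of 10 shuttle and extraction genes, 7 fell in MDA-MB-231 and 4 in both lines, and none rose, with medians of -0.68 and -0.39. Of the genes with a mean above 8, 26.2% fell in MDA-MB-231, 15.3% in SKOV3 and 13.4% in both lines. The shares of all genes were 11.7%, 7.11% and 5.39%. UBQLN2, a shuttle of the ubiquilin family, read 9.12, 8.73 and 8.91 in MDA-MB-231 controls and 7.32, 7.38 and 7.41 in treated cells, all 3 of the latter under the 60th percentile of all values. It read 10.13 and 10.07 in SKOV3 controls and 7.79, 8.44 and 8.13 in treated cells, and fell by 1.55 ± 0.15 in MDA-MB-231 and 1.98 ± 0.17 in SKOV3 (adjusted p = 0.000157 and 0.000165, limma). Treated and control arrays of UBQLN2 were apart in both lines, and the size of the fall in MDA-MB-231 is limited by the lower end of the signal. Of 6 genes that supply ubiquitin, 3 fell in MDA-MB-231 and 1 in SKOV3, namely UBA1, the main ubiquitin-activating enzyme, with falls of -1.39 ± 0.21 and -1.25 ± 0.24 (adjusted p = 0.00149 and 0.00842, limma, and in SKOV3 0.0679 or 0.0641 without SKOV3 control replicate 1 or 2).

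Of 10 assembly and proteasome-bound factors, 3 rose and 3 fell in MDA-MB-231, and 2 rose and 1 fell in SKOV3. Among genes with a mean above 8, 39.0% rose and 26.2% fell in MDA-MB-231, and 23.4% and 15.3% in SKOV3. The deubiquitinase USP14, which docks on PSMD2, fell by 0.47 ± 0.034 and 0.26 ± 0.038 (adjusted p = 3.61e-05 and 0.00224, limma), and in SKOV3 by 0.50 on deposited values. Its treated MDA-MB-231 arrays read 7.32, 7.39 and 7.40, under the 60th percentile of all values, so that the size of that fall is limited too. Of the 8 genes of the transcriptional control of subunits, 1 rose and 2 fell in MDA-MB-231, and 1 rose in SKOV3. NFE2L1 read 8.94, 9.08 and 8.81 in MDA-MB-231 controls and 8.11, 8.27 and 8.29 after miR-365a-3p and fell by 0.72 ± 0.085 (adjusted p = 0.000401), with -0.31 in SKOV3 (adjusted p = 0.0659, limma); it is named after its values were seen. NGLY1, the glycanase that helps to activate the NFE2L1 protein, rose by 0.56 ± 0.10 and 0.56 ± 0.11 (adjusted p = 0.00367 and 0.0119, limma, and 0.119 in SKOV3 without SKOV3 control replicate 2). On deposited values NGLY1 gave 0.27 and 0.30 and did not pass (adjusted p = 0.163 and 0.197, limma), nor did it with median centring (0.0964 and 0.126) or, in SKOV3, with the replicate block (0.0699). Over all 39 partner genes, 5 rose (12.8%) and 17 fell (43.6%) in MDA-MB-231, with a median of -0.15. In SKOV3, 4 rose (10.3%) and 7 fell (17.9%), with a median of -0.082.

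**Figure D5:**
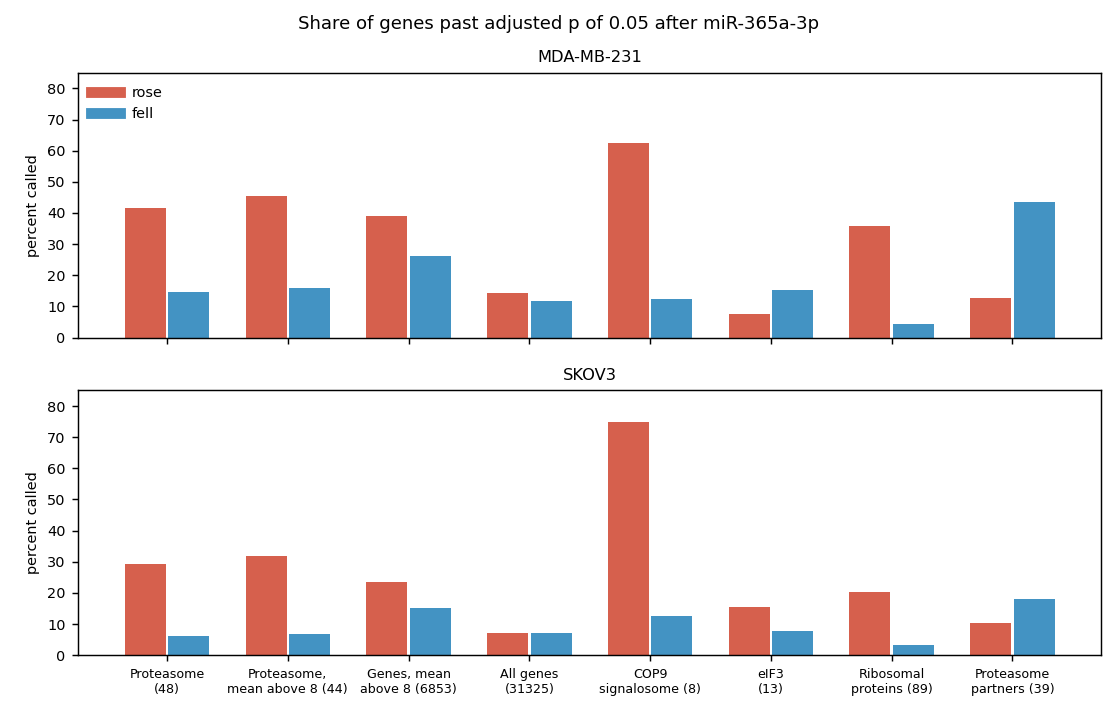
Percent of genes that rose or fell at an adjusted p under 0.05 (vertical axis) in each cell line, for the members, for other gene sets with their sizes in brackets, and for all genes. The members' bars for rising genes lie near those of all genes with a mean above 8, and the proteasome partners are the set with more falls than rises in both lines.

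Complexes akin to the cap or of like size gave different counts. Among genes with a mean above 8, 39.0% rose and 26.2% fell in MDA-MB-231, and 23.4% and 15.3% in SKOV3. The COP9 signalosome, whose subunits are related to those of the 19S lid, had 5 of 8 genes that rose and 1 that fell in MDA-MB-231, and 6 and 1 in SKOV3, with medians of 0.69 and 0.80. In initiation factor 3, the third complex of this kind, 1 of 13 rose and 2 fell in MDA-MB-231 and 2 rose and 1 fell in SKOV3, with medians of -0.049 and 0.07. Among 89 cytosolic ribosomal protein genes, 32 rose (36.0%) and 4 fell (4.49%) in MDA-MB-231, with a median of 0.25. In SKOV3, 18 rose (20.2%) and 3 fell (3.37%), with a median of 0.19. Treated replicates were not equally far from the controls: in MDA-MB-231, replicate 1 was the array farthest from the control mean for 29 of the 48 members, replicate 2 for 15 and replicate 3 for 4. In SKOV3 the numbers were 27, 9 and 12. What set replicate 1 apart was not tested.

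The promoter windows of 42 members could be read (250 bases before the start and 50 after it). TGACNNNGC occurred in 31.0% of them, in 13.6% of all 27305 promoters and in 16.0% of those of genes with a mean above 8. CCAAT was found in 45.2%, 35.7% and 39.2%, and CCGGAAGT in 8 of the 42, 4.44% and 11.1%. In the 26 windows of constitutive 20S and 19S subunits, TGACNNNGC stood in 5 (19.2%), CCAAT in 14 (53.8%) and CCGGAAGT in 6 (23.1%). TGACNNNGC stood in the windows of 4 of the 19 members that rose in MDA-MB-231 and had a window, and in 4 of the 7 that fell. For CCAAT these numbers were 11 of 19 and 2 of 7, and for CCGGAAGT 2 of 19 and 2 of 7. A match describes the letters of the window and is not a site of binding.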

How the data were processed

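Biotin-labelled cRNA of 11 samples was hybridized to Illumina HumanHT-12 v4 BeadChips. Quantile normalization was done by the authors in lumi, and the deposited table holds 1 log2 value for each of 31325 gene symbols and array. Whether the transformation was log2 or variance-stabilizing, how probes of a gene were combined and whether background was subtracted are not given in the sources used here. Precision is limited by the few arrays per group.

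The deposited columns did not share a distribution and were quantile normalized again with limma 3.58.1 in R 4.3.3. Samples were grouped by line and treatment from their labels. Per gene, 1 linear model of the 4 group means was fitted (lmFit, eBayes), and two-sided p-values were Benjamini-Hochberg adjusted over the whole table, with a threshold of 0.05; ± after a fold change is the SE of this fit. Within a line, the deviations of same-numbered treated and control arrays correlated between -0.12 and 0.23, so the numbers were not used as pairs within a line. Across the lines, same-numbered treated arrays correlated between 0.31 and 0.70 and the controls at 0.12 and -0.13.

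Roles of the members and the lists of partner genes came from textbook knowledge, and members and lists were chosen with earlier results of these data known. Members were named if called with the same sign in both lines (the 12 with the largest mean change), if among the 6 with the largest difference between control groups, or if they encode catalytic, inducible, activating or inhibiting subunits. Partners were named if called with the same sign in both lines, up to 2 of each list. Some genes of these lists are not reported here. Promoters and miRNAs were taken from RefSeq tables (GRCh38.p14). The script was tested on simulated data. The alternatives were deposited values, centring on the median, cyclic loess, each line alone, a replicate block, dim genes left out, an intensity trend, array weights, an adjusted p under 0.01, a minimum log2 fold change of 0.5, and leaving out the arrays in turn; a block shared by both lines was added after the data were seen. Protein length and seed sites in transcripts were not analysed here.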

Additional observations from a re-analysis of the deposited data

How the results depend on the processing

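Results of the genes named by rule were recomputed under 22 alternatives, 11 of them without 1 array each. Comparisons between the control groups had 19 of these alternatives. Genes named after their values were seen, or only as part of a class or list, are not in the single-gene counts. For single named genes, 1737 alternative values were obtained over 81 results: 1561 kept their direction and side of the threshold, 133 lost it, 31 gained it and 12 changed sign, all of these without a call. The sign changed for PSMB6 in SKOV3 with deposited values (0.021), centring on the median (0.059) and array weights (0.010), with a range of -0.11 to 0.0084 without 1 array each, for PSMB1 in SKOV3 with cyclic loess (-0.087), with a range of -0.038 to 0.14, and for PSMF1 in SKOV3 with the replicate block (0.055), with a range of -0.13 to 0.055. PSMF1 in MDA-MB-231 ranged from -0.22 to 0.029 without 1 array each. Members that rose in SKOV3 numbered 8 with cyclic loess, 9 with each line alone and 6 at an adjusted p under 0.01, and those that rose in both lines 7, 7 and 5. Those that fell in SKOV3 numbered 5 with dim genes left out and 6 with array weights, and under each of these 1 member (PSMC1) differed in response. Between the controls, 3 were lower with deposited values or centring on the median and 8 with array weights, and 7 were higher and 2 lower at an adjusted p under 0.01. Without 1 array each, the counts ranged from 16 to 23 rises and 5 to 7 falls in MDA-MB-231, 3 to 19 and 1 to 4 in SKOV3, 2 to 18 and 1 to 4 in both lines, 7 to 13 higher and 2 to 6 lower between controls, and 0 to 1 lower for the difference of responses. The replicate block gave 20 rises and 5 falls in MDA-MB-231, 10 and 2 in SKOV3, and 9 and 2 in both lines. Under it 0 members differed in response. Deviations of same-numbered treated and control arrays of a line correlated between -0.12 and 0.23. A block shared by both lines gave 20 and 7, 14 and 2, and 13 and 2. The causes of these changes were not tested. Genes near the lower end of the signal, such as PSMA7, PSMA8, PSMB11 and PSMD9, could show little change at all.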
